A study of Mus musculus with 6 samples.

Results

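Complex III, complex IV and ATP synthase carry out the last steps of mitochondrial respiration, and their nuclear-encoded subunit genes are examined here in kidneys of wild-type and mutant mice. A gene was included when a probe of the array was annotated with exactly 1 gene symbol that starts with Uqcr, Atp5, Cox4, Cox5, Cox6, Cox7 or Cox8. This gave 40 genes of 18048 with such a probe, namely 8 of complex III, 16 of complex IV and 16 of ATP synthase, each read from the probe with the highest mean over the 6 arrays. Kidneys of 3 wild-type animals and of 3 homozygous mutants were each read on 1 single-colour CodeLink oligonucleotide array. In both genotypes a portion of kidney, perfused with PBS, had been snap-frozen. The labels name neither the mutated gene nor the strain, age or sex. The transcript of the mutated gene could therefore not be checked against the genotype labels.

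In the inner mitochondrial membrane, complex III passes electrons from ubiquinol to cytochrome c, and complex IV (cytochrome c oxidase) passes them on to oxygen, both while building a proton gradient. ATP synthase lets protons flow back through a rotating ring of c subunits and uses the rotation to make ATP in its catalytic head. Proximal tubule cells of the kidney are rich in mitochondria and rely on this pathway for solute reabsorption. The catalytic core of complex IV and parts of the other complexes are encoded by mitochondrial DNA and are not among these genes.

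A level below is a log2 intensity after division by the median of its array. A difference is the mutant mean minus the wild-type mean on that log2 scale. The low-signal limit, estimated from the spread of the dimmest values, lay at 0.59 log2. Arrays held between 39.0% and 43.1% of their values above it. Kidney markers were present, such as Miox with a mean of 9.41 in wild types and 8.42 in mutants. Each of the 14 proximal tubule markers measured lay above the limit on at least 1 array, though the means of Slc5a2 were below it in both genotypes. The replicate 1 arrays of both genotypes stood apart in sex-linked transcripts. On these, Eif2s3y, a Y-linked gene, lay at the floor of -1.79, against 3.01 to 3.46 on the other 4 arrays. Xist went the other way, at 2.21 and 3.00 on the replicate 1 arrays and between -0.85 and -0.21 on the other 4. A second Xist probe lay below the limit on every array with a value. In both genotypes replicate 1 thus had the pattern of a female and replicates 2 and 3 that of males. A fit to replicates 2 and 3 alone is therefore given beside the main results.

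None of the subunit genes passed the test, while most of their differences were below 0. Of the 40 genes, 37 passed the filter on low values, and 0 of 37 were lower and 0 of 37 higher in mutants at an adjusted p of 0.05 (limma with Benjamini-Hochberg adjustment over 25834 probes). Over all 14817 genes tested, 1.59% were called lower and 5.67% higher. At an unadjusted p under 0.05, 5 of the 37 lay lower and 0 higher, against 6.29% and 14.6% of all genes. Without the intensity trend, with a robust prior or with array weights in limma, 0 members passed as well. The smallest adjusted p was 0.086, that of Atp5pb. A single member, Atp5pb, Atp5b or Cox7a1, passed in a few alternatives that are given with these genes.

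The sign of the differences was uneven. It was below 0 in 33 of 37 subunit genes, against 42.5% of all genes tested, and the median member differed by -0.19, against 0.08 over all genes. These genes come from shared RNA samples and are not independent of each other, so no test was made on that count. The wild-type and mutant values did not overlap in 11 of the 35 members measured on all 6 arrays, each time with the mutants lower, against 8.89% of all such genes lower without overlap. The median by complex was -0.14 in complex III, -0.17 in complex IV and -0.26 in ATP synthase. With replicates 2 and 3 alone, 30 of 35 members lay below 0 and the median was -0.24, with 0 called. After cyclic loess, which scales arrays along the intensity range, the median member lay at -0.15 and the median of all genes at -0.01. Their distance thus shrank from 0.27 to 0.13, and it was 0.14 after quantile normalization. The members were bright, with a median level of 7.38 against 1.64 over all genes. The shares over all genes are therefore not shares over genes of like intensity.

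The intervals give a range for the difference of each gene taken alone, and they were not adjusted for the number of genes. For 33 of the 37 members the 95% interval of the limma fit lay within 1 log2 unit of 0, which is a 2-fold change in either direction. The 4 others were Atp5pb and the dim complex IV genes Cox4i2, Cox6a2 and Cox8b. The interval lay within 0.5 log2 units of 0 for 9 members. It lay wholly below 0, before adjustment for the number of probes, for 5 members: Atp5pb, Atp5b, Atp5c1, Atp5a1 and Cox7a1. By construction these are the 5 members counted above as lower at an unadjusted p under 0.05 (limma), against 6.29% of all genes.

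**Figure D1:**
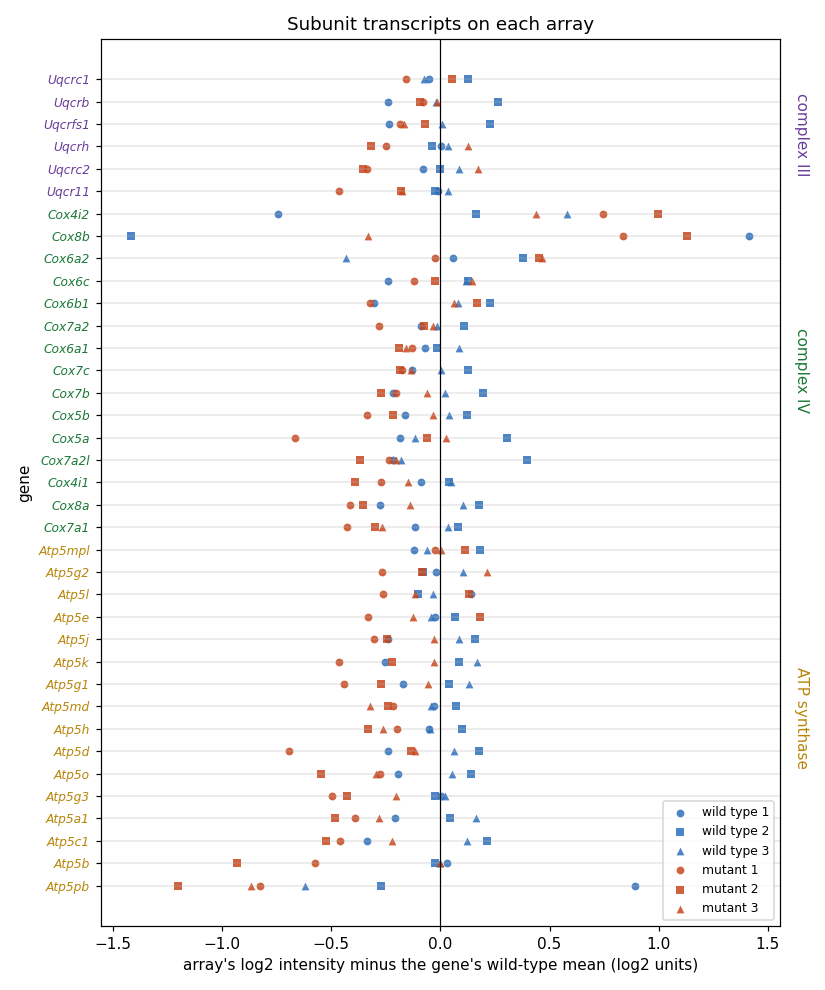
Each row is a subunit gene that passed the filter, and each point is an array, placed at its log2 intensity minus that gene's wild-type mean in log2 units; blue is wild type, orange mutant, and the marker shape is the replicate. Most orange points lie left of 0, and most rows still overlap between genotypes, with wild-type replicate 1 far to the right for Atp5pb.

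Promoters of several members hold the letters of binding motifs for nuclear respiratory factor 1 and for ETS factors such as the GA-binding protein, both known regulators of respiratory genes. The RefSeq promoter table (GRCm38.p6, windows of 300 bases, 250 before to 50 after each start) had a window for 31 of the 40 members. The nuclear respiratory factor 1 letters, GCGCA, any base and then GCGC on either strand, occurred in 8 of these 31 genes, or 25.8%, against 5.19% of the 27025 genes in the table. The ETS letters, CCGGAAG on either strand, occurred in 11 of 31, or 35.5%, against 9.93%. A YY1 core, AAGATGGC, occurred in 2 of 31, or 6.45%, against 3.19%. The first pair of motifs occurred together in 3 genes, Cox6a1, Atp5h and Atp5k. These are letter matches, and binding was not measured. Stretches of 4 genes are shown in lower case, each the 170 bases just before the annotated start, 5′ to 3′ along the gene, with motif letters in capitals. They were chosen to set a ring subunit, a stalk subunit and a complex IV subunit that hold such letters beside Atp5b, the catalytic subunit, which holds none of them here.
Atp5g2, chr15:102671048-102671217, minus strand: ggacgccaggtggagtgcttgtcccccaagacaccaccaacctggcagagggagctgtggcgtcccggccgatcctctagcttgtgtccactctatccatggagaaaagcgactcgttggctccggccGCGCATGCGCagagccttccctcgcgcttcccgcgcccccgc
Atp5h, chr11:115419920-115420089, minus strand: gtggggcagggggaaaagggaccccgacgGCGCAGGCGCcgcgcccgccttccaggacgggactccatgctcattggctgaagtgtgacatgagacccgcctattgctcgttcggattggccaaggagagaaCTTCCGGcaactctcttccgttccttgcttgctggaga
Cox6a1, chr5:115348959-115349128, minus strand: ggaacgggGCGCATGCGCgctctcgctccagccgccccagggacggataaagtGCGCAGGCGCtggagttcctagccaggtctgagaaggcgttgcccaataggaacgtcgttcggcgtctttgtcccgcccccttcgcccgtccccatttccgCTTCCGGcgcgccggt
Atp5b, chr10:128083137-128083306, plus strand: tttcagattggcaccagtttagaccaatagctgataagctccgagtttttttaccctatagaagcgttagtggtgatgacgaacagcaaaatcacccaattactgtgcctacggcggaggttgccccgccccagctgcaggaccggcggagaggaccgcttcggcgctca
Atp5g2, with respiratory factor letters, differed by -0.05 ± 0.15 (SE), Cox6a1 with both motifs by -0.16 ± 0.23 and Atp5h with both by -0.26 ± 0.21. Atp5b, without them, differed by -0.50 ± 0.19. These chosen genes do not stand for their groups. Within ATP synthase the median was -0.32 in the 6 genes with the respiratory factor letters and -0.26 in the 8 without them. Over all members with a window that were tested, the median difference was -0.25 in the 8 with the respiratory factor letters and -0.20 in the 21 without them. For the ETS letters it was -0.19 in the 11 with them and -0.25 in the 18 without. For the YY1 letters it was -0.58 in the 2 with them, Atp5j and Atp5pb, and -0.23 in the 27 without.

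ATP synthase had the lowest median of the 3 complexes studied here, with differences between complexes untested. Of its 16 genes all passed the filter, 15 lay below 0, 4 were lower at an unadjusted p under 0.05, and 6 were lower without overlap between genotypes. Over all genes, 42.5% lay below 0, 6.29% were lower at that p, and 8.89% of those on all arrays were lower without overlap. In the catalytic head, the alpha subunit gene Atp5a1 read 7.23, 7.48 and 7.60 in wild types and 7.04, 6.95 and 7.16 in mutants. All 3 mutants lay below all 3 wild types, and the difference was -0.39 ± 0.17 (SE), or 1.31-fold lower, without passing (limma, adjusted p = 0.259). The beta subunit gene Atp5b, which carries the catalytic sites, read 5.76, 5.71 and 5.73 in wild types and 5.16, 4.80 and 5.73 in mutants. The wild types were nearly equal, mutant replicates 1 and 2 were lower, and mutant replicate 3 was at the wild-type level. The difference was -0.50 ± 0.19 (limma, adjusted p = 0.185). Without mutant replicate 3 it was -0.75 ± 0.16 and passed (adjusted p = 0.0205), while over the other alternatives the adjusted p lay between 0.079 and 0.570.

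The central stalk links the head to the ring. Its gamma subunit gene Atp5c1 read 5.99, 6.54 and 6.45 in wild types and 5.86, 5.80 and 6.10 in mutants. Wild-type replicate 1 lay among the mutants, and the difference was -0.40 ± 0.17 (limma, adjusted p = 0.231). A second Atp5c1 probe, with a mean below the low-signal limit in both genotypes, differed by -0.13 ± 0.47. The delta subunit gene Atp5d read 8.05, 8.47 and 8.35 against 7.60, 8.15 and 8.17 and differed by -0.31 ± 0.22. The epsilon subunit gene Atp5e read 7.73, 7.82 and 7.71 against 7.42, 7.93 and 7.63 and differed by -0.09 ± 0.19. In these last 2 genes the genotypes overlapped, and mutant replicate 1 was the lowest array in both.

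The peripheral stalk, which keeps the head from turning with the ring, held the gene with the lowest difference. Atp5pb, the b subunit, read 8.41, 7.25 and 6.90 in wild types and 6.69, 6.32 and 6.65 in mutants. The genotypes did not overlap, but wild-type replicate 1 stood 1.16 log2 units above the next array. The fitted difference was -0.97 ± 0.30, or 1.95-fold lower (limma, adjusted p = 0.086). Without wild-type replicate 1 it was -0.52 (adjusted p = 0.148). It passed without wild-type replicate 3, at -1.27 (adjusted p = 0.0292), and at an adjusted p of 0.0134 with the replicate number as a block. Atp5o, the subunit that confers oligomycin sensitivity, read 7.80, 8.14 and 8.05 against 7.72, 7.45 and 7.70 without overlap and differed by -0.37 ± 0.19. Atp5h, the d subunit, read 8.78, 8.93 and 8.78 against 8.63, 8.50 and 8.57, again without overlap. Atp5j, coupling factor F6, overlapped between genotypes and differed by -0.19 ± 0.17.

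The c ring is encoded by 3 genes whose products share one mature protein and differ in their import sequences. Atp5g3 read 8.83, 8.81 and 8.85 in wild types and 8.34, 8.40 and 8.63 in mutants, with all mutants lower. Its difference was -0.38 ± 0.21 (limma, adjusted p = 0.409). Atp5g1 read 6.69, 6.90 and 6.99 against 6.42, 6.59 and 6.81 and differed by -0.26 ± 0.16. Its dimmer second probe differed by -0.60 ± 0.24 (limma, adjusted p = 0.212), with mutants lower on all arrays. Atp5g2 read 5.43, 5.37 and 5.55 against 5.18, 5.37 and 5.66 and overlapped throughout. Whether the probes of these similar transcripts cross-hybridise was not tested. The accessory membrane subunit genes Atp5k, Atp5l, Atp5md and Atp5mpl differed by between -0.26 and 0.03. Among them Atp5md was without overlap, and Atp5mpl was the only ATP synthase gene above 0.

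**Figure D2:**
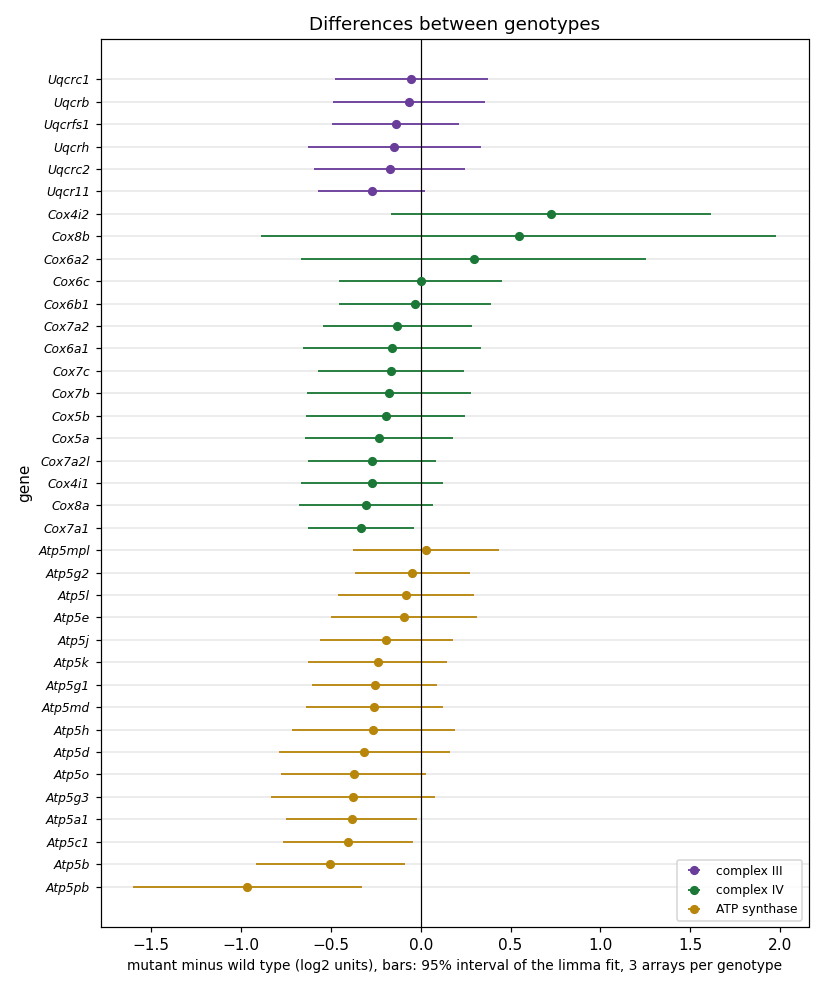
Points are the mutant minus wild-type differences of the 37 tested subunit genes in log2 units, and bars are the 95% intervals of the limma fit with 3 arrays per genotype, coloured by complex. The wide bars belong to the dim genes Cox4i2, Cox6a2 and Cox8b and to Atp5pb, and the intervals of 5 genes lie wholly below 0 before adjustment.

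Complex IV, with 16 genes, had 15 that passed the filter. Of these, 12 lay below 0, against 42.5% of all genes, and the 3 above it were the dim Cox4i2, Cox6a2 and Cox8b. Cox4i1, the common form of subunit 4, which is needed for assembly of the enzyme, read 8.03, 8.15 and 8.16 in wild types and 7.84, 7.72 and 7.97 in mutants. The genotypes did not overlap, and the difference was -0.27 ± 0.18 (limma, adjusted p = 0.518). Cox4i2, the form known from lung and from low-oxygen conditions, read -0.59, 0.32 and 0.74 against 0.90, 1.15 and 0.59. These values lay around the low-signal limit, and the difference was 0.73 ± 0.41 (limma, adjusted p = 0.419). Differences of these isoforms had opposite signs, with the difference between them untested.

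Other subunits of complex IV lay close together. Cox5a read 5.63, 6.12 and 5.70 against 5.15, 5.75 and 5.84, and Cox5b read 8.32, 8.60 and 8.52 against 8.15, 8.26 and 8.45. Both overlapped between genotypes, with differences of -0.23 ± 0.19 and -0.20 ± 0.21. Cox6a1, the common form of subunit 6a, read 9.10, 9.15 and 9.26 against 9.04, 8.98 and 9.01. Its mutants were all lower, by 0.16 on average, which was less than the standard error of the fit. Cox6b1 read 7.09, 7.62 and 7.47 against 7.07, 7.56 and 7.45, so that the same-numbered arrays of both genotypes differed little. Cox7a2 differed by -0.13 ± 0.19, Cox7b by -0.18 ± 0.21 and Cox7c by -0.17 ± 0.19. For Cox6c the fitted means were both 8.43. Cox8a, the common form of subunit 8, read 6.87, 7.32 and 7.24 against 6.73, 6.79 and 7.00 and differed by -0.30 ± 0.17. Cox7a2l, which helps join complex III and complex IV into supercomplexes, differed by -0.27 ± 0.16, with wild-type replicate 2 at 5.59 and the other 5 arrays between 4.83 and 5.01.

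Forms of complex IV subunits known from striated muscle were measured as well. Cox7a1, the heart and muscle form of subunit 7a, read 3.68, 3.88 and 3.83 in wild types and 3.37, 3.50 and 3.53 in mutants. All arrays lay above the low-signal limit, the genotypes did not overlap, and the difference was -0.33 ± 0.14 (limma, adjusted p = 0.227). After quantile normalization it was -0.47 ± 0.12 and passed (adjusted p = 0.0384), while over the other alternatives the adjusted p lay between 0.0515 and 0.454. Cox6a2 was below the limit on all 6 arrays. Cox8b, also a brown fat gene, read 2.28 and -0.55 in the wild types with a value and 1.70, 2.00 and 0.54 in mutants, a spread within each genotype that exceeded the difference. Cox7b2, known from testis, did not pass the filter. Muscle marker genes (Ckm, Myh4, Acta1, Tnnc2 and Myl1) were below the limit on every array with a value. The brown fat gene Ucp1 was above it on 3 arrays, at 2.90 in wild-type replicate 3 and at 1.12 and 2.75 in mutant replicates 1 and 2. Cidea, the other brown fat marker, lay below the limit on every array with a value. The part of such cells in the values of Cox7a1 and Cox8b was not tested.

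In complex III, of 8 genes 6 passed the filter, all 6 lay below 0, and 1, Uqcr11, did not overlap between genotypes. Over all genes, 42.5% lay below 0, and 8.89% of those on all arrays were lower without overlap. Uqcr10 and Uqcrq, small subunits, had signals below the low-signal limit on all 6 arrays and did not pass the filter. Uqcrc1, a core structural subunit, read 2.49, 2.67 and 2.47 in wild types and 2.39 and 2.60 in the mutants with a value. Uqcrc2, its partner, read 7.74, 7.82 and 7.91 against 7.49, 7.47 and 7.99, with mutant replicate 3 the highest of all. Uqcrfs1, the Rieske iron-sulphur protein that takes electrons from ubiquinol, read 6.71, 7.17 and 6.95 against 6.76, 6.87 and 6.77. None of these 3 core genes differed by more than 0.17, with standard errors between 0.16 and 0.20. Cyc1, the cytochrome c1 subunit, which the symbol rule leaves out, differed by -0.02 ± 0.18.

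Small subunits of complex III were measured for 3 further genes. Uqcr11 read 5.93, 5.92 and 5.97 against 5.48, 5.76 and 5.76 and differed by -0.27 ± 0.14 (limma, adjusted p = 0.345). Uqcrh, the hinge protein, read 8.81, 8.77 and 8.84 against 8.55, 8.48 and 8.93. Mutant replicates 1 and 2 were lower than every wild type, and mutant replicate 3 was higher than every one. The second Uqcrh probe differed by -0.10 ± 0.23. Uqcrb, which supports the ubiquinone site, differed by -0.06 ± 0.20.

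Arrays differed among themselves as well as between genotypes. Over the 35 members above the low-signal limit in both genotypes, the median deviation from the wild-type mean was -0.12, 0.10 and 0.03 on wild-type replicates 1, 2 and 3. On mutant replicates 1, 2 and 3 it was -0.28, -0.22 and -0.12. Wild-type replicate 1 and mutant replicate 3 thus stood at nearly the same level. These arrays also differed in sex-linked transcripts. Only replicate 1 of each genotype had the female pattern, so sex and other differences between arrays cannot be told apart. Between the replicate 1 arrays the mutant was lower, at -0.28 against -0.12. Among replicates 2 and 3 both mutants, at -0.22 and -0.12, lay below both wild types, at 0.10 and 0.03. Mutant replicate 1 was the lowest array for 16 of the 35 members and mutant replicate 2 for 13, while wild-type replicate 2 was the highest for 19. In ATP synthase the medians were -0.09, 0.07 and 0.04 against -0.36, -0.26 and -0.12 and did not overlap. In complex III and in complex IV they overlapped.

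**Figure D3:**
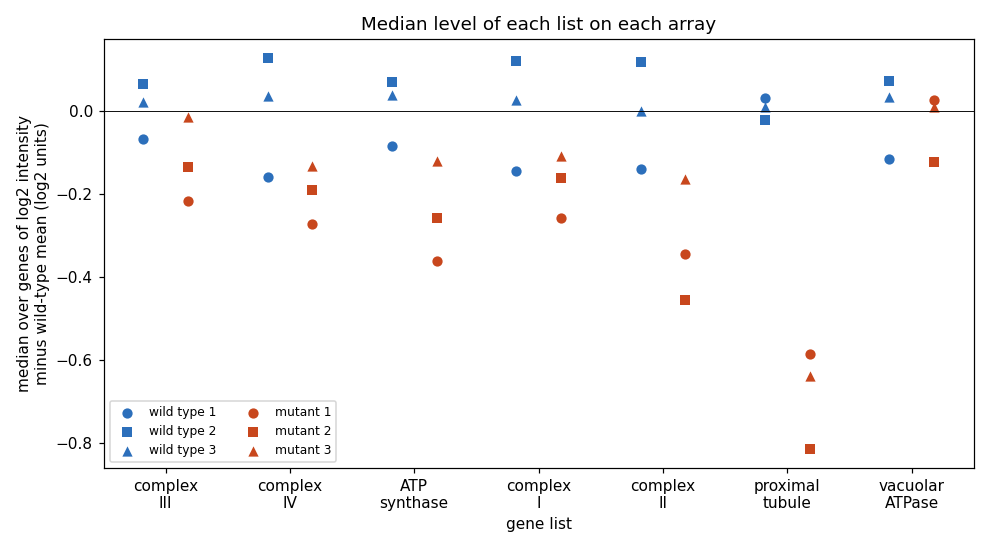
Each point is an array, placed at the median over a gene list of log2 intensity minus the gene's wild-type mean, in log2 units; for complexes III and IV and ATP synthase only members above the low-signal limit are used. Wild-type replicate 1 lies lowest among wild types in each respiratory list, and the mutants lie between -0.02 and -0.45 in those lists and between -0.59 and -0.81 for proximal tubule markers.

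Other genes of the respiratory chain showed small differences too. Of 38 complex I genes tested, 1 fell, Ndufa9, and 35 lay below 0 with a median of -0.19. Over all genes, 1.59% were called lower and 42.5% lay below 0. The complex I list, taken by symbols starting with Nduf, also held assembly factors such as Ndufaf1, the pseudogene Ndufs5-ps and Ndufa4l2. Of 6 genes of complex II subunits and assembly, 2 fell and the median was -0.33. These were Sdha, the flavoprotein of succinate dehydrogenase, at -0.78 ± 0.19 (limma, adjusted p = 0.0242), and Sdhc, a membrane anchor, at -0.55 ± 0.13 (adjusted p = 0.0265). Whether complex II differed more than the subunits studied here was not tested. With replicates 2 and 3 alone, 0 of the 38 complex I genes and 1 of the 6 complex II genes were called lower. Complex I had 3 calls after quantile normalization or cyclic loess, and complex II had 3 after cyclic loess or with array weights. With no intensity trend both had 0, and with no filter on dim probes complex I had 0. Leaving out any single array gave 0 calls in complex I, and in complex II 1 call without a wild-type array and 0 without a mutant array.

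Further genes of these complexes, outside the symbol rule, gave no call. Of 7 genes of complex III (the subunit gene Cyc1, partners and assembly factors), 17 assembly and accessory factors of complex IV and 8 factors for ATP synthase, 0 passed in either direction, with medians of -0.19, -0.03 and -0.18. Cytochrome c (Cycs), the carrier between complexes III and IV, differed by -0.33 ± 0.18, the adenine nucleotide translocase Slc25a5 by -0.39 ± 0.18 and the ATP synthase inhibitor Atpif1 by -0.04 ± 0.17. Lower at an unadjusted p under 0.05 (limma) were Uqcc1 (-0.46 ± 0.17), Lrpprc (-0.52 ± 0.20), Taco1 (-1.20 ± 0.45) and Slc25a3 (-0.61 ± 0.26). Uqcc2 was higher at that p (0.45 ± 0.18). The mutant mean of Taco1 lay below the low-signal limit. Of 19 regulators of mitochondrial biogenesis 0 passed, with a median of -0.22 and 15 below 0, against 42.5% of all genes below 0. Among these, Tfam, which binds and packages mitochondrial DNA, differed by -0.02 ± 0.14, the nuclear receptor Esrra by -0.27 ± 0.16 and the coactivator Ppargc1a, near the low-signal limit, by 0.54 ± 0.45. The 3 with an unadjusted p under 0.05 were all lower, namely the polymerase subunit gene Polg2 at -1.27 ± 0.39, the nuclear receptor Esrrb at -0.49 ± 0.18 and the coactivator Ppargc1b at -0.46 ± 0.20 (limma, adjusted p = 0.0863, 0.181 and 0.256). The mutant mean of Polg2 lay below the low-signal limit. These regulators were picked from the list after their values had been seen. The vacuolar ATPase, a proton pump of another family, had 0 calls among 18 genes and a median of -0.02. Glycolysis had 0 lower and 2 higher (Hk2 and Pfkp) among 12, against 5.67% of all genes called higher. The wild-type mean of Hk2 lay below the low-signal limit. The glycolysis count fell to 1 when any array but wild-type replicate 3 or mutant replicate 2 was lacking. It was 0 without mutant replicate 2, and 0 with replicates 2 and 3 alone or with no intensity trend.

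Markers of some kidney cell types moved with genotype in the same samples, and those of others had few or no calls. Over all genes tested, 1.59% were called lower and 5.67% higher. Of 14 proximal tubule markers 7 fell and 14 lay below 0, with a median of -0.74, and their summed intensity was between 1207 and 1409.7 times the array median in wild types and between 679 and 735 in mutants. The number lower was 3 without wild-type replicate 3, 2 without mutant replicate 2, 4 without mutant replicate 3 and 0 with no intensity trend in limma. Slc22a8, an organic anion transporter, fell by 1.48 ± 0.24, and Hnf4a, a transcription factor of proximal tubule identity, by 0.76 ± 0.15. All 7 stromal markers rose, with summed intensities of 116 to 134 in wild types and 407 to 431 in mutants. Of 6 myeloid markers 4 rose, with sums of 20.8 to 26.5 and 92.8 to 125. The remaining ones, Adgre1 at -0.82 ± 0.64 and Itgam at 0.48 ± 0.55, lay below the low-signal limit on every array with a value. The stromal count was 4 with no intensity trend. All 3 tubular injury markers measured (Havcr1, Krt20 and Clu) rose, with sums of 40.3 to 58.1 in wild types and 192 to 207 in mutants. The wild-type means of Havcr1 and Krt20 lay below the low-signal limit, while Clu, a secreted chaperone, was above it and rose by 1.66 ± 0.16. Of the other lists, 0 of 8 collecting duct, 0 of 3 podocyte and 0 of 4 endothelial markers were called, with medians of 0.13, -0.03 and 0.37. Yet 3 of the 4 endothelial markers were higher at an unadjusted p under 0.05 (limma), against 14.6% of all genes. Thick ascending limb markers had 1 of 4 lower, Egf, with a median of -0.10. Distal tubule markers had 1 of 4 lower, Pvalb, with a median of 0.06. Lymphocyte markers had 1 of 4 higher, Cd3d, whose wild-type mean lay below the low-signal limit. In whole kidney, fewer cells of a type and less RNA per cell cannot be told apart. The part of these marker shifts in the subunit values was not tested.

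**Figure D4:**
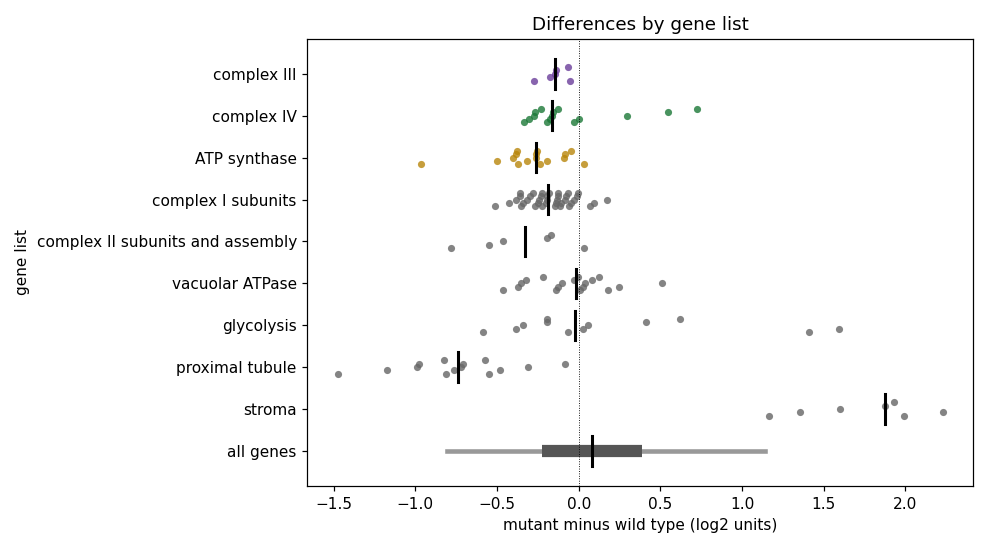
Points are mutant minus wild-type differences in log2 units for each tested gene of a list, vertical bars are list medians, and the bottom row gives all 14817 genes (thick bar from the 25th to the 75th percentile, thin bar from the 5th to the 95th). The medians of the 3 complexes lie at -0.14, -0.17 and -0.26, between the all-gene median of 0.08 and the proximal tubule median of -0.74.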

How the data were processed

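Kidney RNA of 3 wild-type and 3 homozygous mutant mice was measured on 6 single-colour CodeLink arrays. The deposited values are linear intensities, 1 per probe and array. Some are negative and every array median lies between 0.994 and 0.997, so the authors had subtracted background and scaled the arrays; the software used was not given in the labels. After division by the array median, values of 0 or less were set missing, those under the 10th percentile (0.290) were raised to it, and logarithms to base 2 (log2) were taken. Probes with at least 2 values per genotype were kept and the lowest 25% by mean level left out. Of 34937 probes, 25834 were tested with limma 3.58.1 in R 4.3.3 (lmFit, eBayes with intensity trend, two-sided), with Benjamini-Hochberg adjustment and a threshold of 0.05. The code was tested on simulated data. Errors of differences are standard errors; the number of arrays limits precision.

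Symbols came from the platform annotation, with 21590 probes holding 1 symbol, 681 holding several and 12666 without any. All 40 members matched RefSeq by gene identifier. The low-signal limit is the mode of the linear values (0.519) plus 3 times the spread below it (0.328). Alternatives covered scaling, floor, filters, variance models, thresholds, the probe that stands for a gene, and arrays left out. Named were members past the threshold, the 3 with the largest differences and the one with the highest level in each complex, isoform sets, and the core subunits; small remaining members are named where the text describes their group. Members and lists were chosen with earlier results of these data known. Same-numbered arrays deviated together with correlations of 0.072, 0.020 and 0.070, against -0.070 to 0.003 for arrays of unlike number. All were small, and the numbers were not taken as pairs in the main fit. A fit with the replicate number as a block is among the alternatives.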

Additional observations from a re-analysis of the deposited data

How the results depend on the processing

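Member calls were made in 22 alternatives, and 0 members were called higher in these. The number called lower was 1 after quantile normalization (Cox7a1), 1 with the replicate number as a block (Atp5pb), 1 at an adjusted p of 0.1 (Atp5pb), and from 0 to 1 with single arrays left out (Atp5pb without wild-type replicate 3, Atp5b without mutant replicate 3). In the remaining ones of these it was 0. The replicate block, whose numbers were not taken as pairs, raised the calls over all probes from 1392 to 1856. Those calls numbered 191 with no intensity trend, 905 with replicates 2 and 3 only, 678 at an adjusted p of 0.01, and 743 to 1230 with single arrays left out. The share of calls higher in mutants was 76.4%, against 61.5% after quantile normalization and 62.9% after cyclic loess.

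The number of members below 0 ran from 27, without mutant replicate 1, to 35, without wild-type replicate 1. With single arrays left out, the medians ran from -0.21 to -0.07 in complex III, from -0.25 to -0.08 in complex IV and from -0.35 to -0.22 in ATP synthase. In complex III the highest of these came without mutant replicate 2, and in complex IV without wild-type replicate 2. After cyclic loess the medians were -0.11, -0.07 and -0.21.

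Of the 28 named members, differences close to 0 changed sign in 11 of 608 alternative values. Cox6b1 was at 0.044 after quantile normalization, 0.023 after cyclic loess, and ran from -0.18 to 0.11 over fits that lacked an array (above 0 when mutant replicate 1 or either of wild-type replicates 2 and 3 was lacking). Uqcrc1 ran from -0.089 to 0.013 over such fits, above 0 without wild-type replicate 2. Atp5g2 ran from -0.18 to 0.063, above 0 without wild-type replicate 3 or mutant replicate 1, and was at 0.053 with replicates 2 and 3 only. Atp5e ran from -0.23 to 0.027, above 0 without mutant replicate 1, and was at 0.015 with replicates 2 and 3 only. The cause was not tested. Signal over background limits Cox4i2, Cox6a2 and Cox8b, and Uqcr10, Uqcrq and Cox7b2 did not pass the filter on dim probes.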
